A study of Mus musculus with 5 samples.

Results

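The promoters of long non-coding RNA (lncRNA) genes that lie away from protein-coding genes were examined for Pcgf6 occupancy in mouse embryonic stem cells (ESCs). A promoter was taken as the 2 kb on each side of the transcription start site (TSS) of a gene annotated as lincRNA or processed_transcript on mm9 (NCBIM37), and it was kept where the TSS lay more than 5 kb from any protein-coding TSS. Of 3845 such genes, 2387 met this rule, among 26204 promoters examined in all. They comprised 528 genes of type lincRNA and 1859 of type processed_transcript, and no gene carried the type antisense in this annotation. The member closest to the limit lay 5014 bp from a protein-coding TSS, and the closest gene left out lay at 4964 bp. The rule itself uses the annotation alone. The 50 members just inside the limit had a summed Santa Cruz/input ratio of 0.866, and the 50 genes just outside one of 0.852. The windows of 129 members overlapped the window of another member, so these share fragments.

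Polycomb repressive complex 1 (PRC1) is a family of chromatin complexes, each built around one Pcgf protein and the ubiquitin ligases Ring1 or Rnf2. The form that contains Pcgf6 also holds Mga, Max, E2F6 and L3mbtl2, and its DNA-binding subunits are known to recognise E-box, E2F and T-box sequences, mostly within CpG islands. LncRNAs are transcripts without an evident protein product. Some act in cis on dosage compensation or imprinting, such as Xist and Airn, others are abundant nuclear RNAs, such as Malat1 and Neat1, and many have no known role.

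CCE is a single established ESC line, which was grown with LIF and fixed with disuccinimidyl glutarate and paraformaldehyde. The samples were 2 ChIP libraries made with a Santa Cruz antibody to Pcgf6 (sc-160649), 2 made with an Abcam antibody (ab48010) and 1 library of input DNA, the chromatin without pull-down. The labels give no treatment beyond culture and fixation for these 5 libraries, and no library from Pcgf6-depleted cells or with a control antibody was analysed here. ChIP coverage holds no measure of transcripts, so the cell type could not be checked against its markers.

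The Santa Cruz libraries held 2290151 and 2300072 fragments, the Abcam libraries 2761653 and 2850495, and the input 22808650. Of the fragment positions in Santa Cruz replicate 1, 88.0% were also in replicate 2 once a fixed shift of 1 or 15 bp was allowed for, and 88.3% for Abcam. The replicates of an antibody thus differed by less than sampling noise and were counted as 1 sample. Across the antibodies, 1.10% of the positions of Santa Cruz replicate 1 were also in Abcam replicate 1, against 0.206% at shifts of 20 or 25 bp. The joined libraries, in which a position counts once, held 2565630 (Santa Cruz), 3162697 (Abcam) and 22281822 (input) fragments. There is therefore no SD between independent replicates, and the 95% intervals given here are exact Clopper-Pearson intervals that cover counting error only.

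Promoters of called members that differ in base composition are shown first, since the composition bears on the comparison by CpG content. Each run covers the 250 bases before and 50 bases after the TSS, 5′ to 3′ on the strand of the gene in NCBIM37, with the dinucleotide CG in capitals. A030009H04Rik is at chr11:69153713-69154012 (plus strand), Gm13718 at chr2:84498986-84499285 (plus) and Gm17717 at chr5:108116985-108117284 (minus). These were past the threshold with both antibodies, and each window holds 23 CG. Gm16280, at chr10:86371256-86371555 (plus), was past it with Santa Cruz and not with Abcam, and holds 11 CG. It is shown for the E2F core described with the motifs. Gm11399, at chr11:3041801-3042100 (plus), is shown as the contrasting case with 2 CG.
A030009H04Rik: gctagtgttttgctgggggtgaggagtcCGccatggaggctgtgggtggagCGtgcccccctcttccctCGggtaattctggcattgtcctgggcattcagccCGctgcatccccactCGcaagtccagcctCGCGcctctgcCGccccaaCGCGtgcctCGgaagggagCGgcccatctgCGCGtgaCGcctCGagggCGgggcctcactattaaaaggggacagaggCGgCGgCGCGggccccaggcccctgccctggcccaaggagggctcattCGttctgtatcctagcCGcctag
Gm13718: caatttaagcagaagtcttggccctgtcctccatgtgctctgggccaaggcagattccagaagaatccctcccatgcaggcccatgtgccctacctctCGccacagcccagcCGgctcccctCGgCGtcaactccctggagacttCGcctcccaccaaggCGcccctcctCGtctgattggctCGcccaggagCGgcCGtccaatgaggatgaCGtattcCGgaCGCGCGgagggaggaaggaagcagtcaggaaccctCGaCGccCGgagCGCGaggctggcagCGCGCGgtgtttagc
Gm17717: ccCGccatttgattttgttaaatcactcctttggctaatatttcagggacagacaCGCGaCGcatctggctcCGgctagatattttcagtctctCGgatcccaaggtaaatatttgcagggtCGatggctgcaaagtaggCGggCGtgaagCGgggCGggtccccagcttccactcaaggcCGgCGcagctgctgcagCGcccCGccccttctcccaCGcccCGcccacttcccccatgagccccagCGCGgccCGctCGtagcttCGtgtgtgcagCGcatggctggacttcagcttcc
Gm16280: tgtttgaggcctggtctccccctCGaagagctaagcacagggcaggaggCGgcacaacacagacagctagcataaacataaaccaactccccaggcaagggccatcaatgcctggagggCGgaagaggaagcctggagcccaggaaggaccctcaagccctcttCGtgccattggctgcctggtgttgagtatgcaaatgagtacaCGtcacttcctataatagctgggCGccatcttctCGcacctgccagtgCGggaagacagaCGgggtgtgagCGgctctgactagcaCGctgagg
Gm11399: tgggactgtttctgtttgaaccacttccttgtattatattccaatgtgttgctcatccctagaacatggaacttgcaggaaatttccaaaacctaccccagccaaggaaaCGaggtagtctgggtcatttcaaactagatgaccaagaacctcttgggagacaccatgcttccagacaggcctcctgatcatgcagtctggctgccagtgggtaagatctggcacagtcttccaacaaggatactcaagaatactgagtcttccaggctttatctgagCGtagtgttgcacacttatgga

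To ask whether Pcgf6 occupied lncRNA promoters, the fragments of each antibody within 2 kb of the TSS were set against those of the input, after scaling to the library totals. Few lncRNA promoters were enriched. With Santa Cruz, 8 of 2387 (0.335%) passed an adjusted p of 0.05, against 0.614% of all promoters and 0.631% of the protein-coding ones. With Abcam, 10 (0.419%) passed, against 1.03% of all promoters and 1.07% of the protein-coding ones. Of the 1458 lncRNA promoters within 5 kb of a protein-coding TSS, 0.823% passed with Santa Cruz and 1.37% with Abcam. In all, 13 members passed with at least 1 antibody. Both antibodies were compared with the same input, so their calls are not independent. At an unadjusted p under 0.05, 80 members (3.35%) passed with Santa Cruz and 99 (4.15%) with Abcam, against 4.81% and 6.01% of all promoters and 5.03% and 6.23% of the protein-coding ones. Each p comes from an exact binomial test in the upper direction, adjusted after Benjamini and Hochberg over all 26204 promoters, and bears on the fragments of these libraries, not on conditions.

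Summed over the members, the ChIP/input ratio was 0.912 (0.897 to 0.928) with the Santa Cruz antibody and 0.937 (0.923 to 0.952) with Abcam. Protein-coding promoters gave 0.941 (0.936 to 0.946) and 0.990 (0.986 to 0.995). The median member had a ratio of 0.894 with Santa Cruz and 0.909 with Abcam, beside 0.894 and 0.939 over all promoters. As a class, distal lncRNA promoters were thus slightly below the input level with both antibodies. This was not particular to them. The sums over all promoters were 0.937 (Santa Cruz) and 0.985 (Abcam). Those of the 1458 lncRNA promoters within 5 kb of a protein-coding TSS were 0.920 and 0.980. A member held a median of 58 input fragments, with a range from 0 to 673. At this depth, 52% of 200 simulated lncRNA promoters with a 3-fold enrichment were recovered for Santa Cruz and 56% for Abcam, and 80% and 82% where the planted enrichment was 4-fold. Of 200 with a 2-fold enrichment, 4.5% and 6.5% were recovered, so enrichment of that size was mostly not detectable promoter by promoter.

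**Figure D1:**
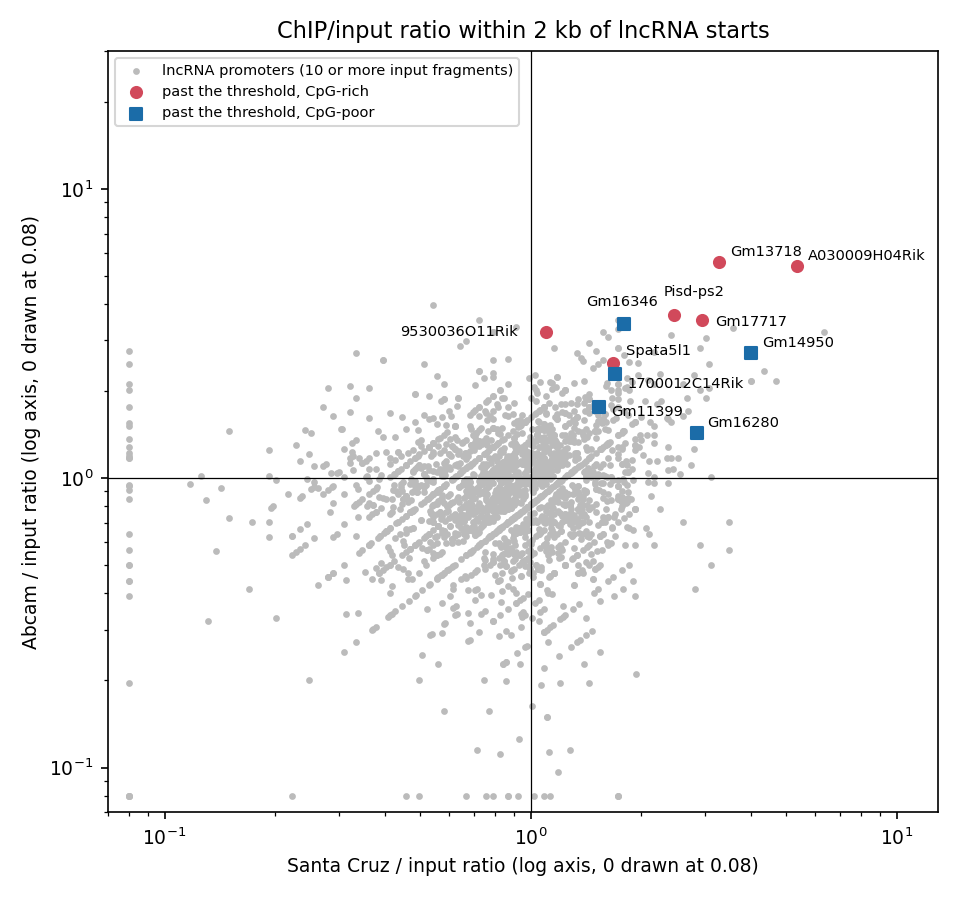
Santa Cruz/input ratio (x axis) against Abcam/input ratio (y axis) within 2 kb of the TSS, both on log axes, for each lncRNA promoter with 10 or more input fragments (grey points). Members past the threshold with at least 1 antibody are named, with red circles for CpG-rich and blue squares for CpG-poor starts. The bulk surrounds the lines at 1, and A030009H04Rik (5.35 and 5.41) and Gm13718 (3.28 and 5.58) stand at the upper right. Both axes share the input, so a common direction of the points is partly set by it.

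A030009H04Rik had the smallest adjusted p of the 13 with both antibodies. It is an intergenic lincRNA gene, and its TSS lies at chr11:69153963. Its depth, per 1000000 of the summed depth of each library (ppm), was 3.88 in the input, 21.4 and 22.7 with Santa Cruz and 19.8 and 20.3 with Abcam. All 4 ChIP libraries were above the input, but called members were chosen by these same fragments, which the replicates largely share. The antibodies did not differ by more than counting error (Abcam over Santa Cruz 1.01, 0.693 to 1.48). The window held 53 Santa Cruz, 66 Abcam and 86 input fragments. The ratio was 5.35 (3.73 to 7.62, exact adjusted p = 8.13e-15) with Santa Cruz and 5.41 (3.86 to 7.54, exact adjusted p = 3.01e-18) with Abcam. The signal was concentrated at the start. Within 500 bp of the TSS lay 71.7% of the Santa Cruz fragments and 74.2% of the Abcam fragments, against 41.9% of the input fragments, and the ratio there was 9.17 (5.66 to 14.9) and 9.59 (6.11 to 15.2). With a window of 10 kb it was 1.99 (1.57 to 2.49) and 2.02 (1.63 to 2.49), still past the threshold with both. Of the Santa Cruz fragments here, 13.2% shared a position with an Abcam fragment, against 2.27% over all members, and what part shared positions have in the ratio was not tested.

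Gm13718 starts in a CpG-rich stretch at chr2:84499236, 8314 bp from the TSS of Ctnnd1, the gene of a catenin. Its depth was 2.43 ppm in the input, 8.74 and 8.83 ppm in the libraries made with Santa Cruz, and 14.4 and 13.7 ppm in those made with Abcam. All ChIP libraries were above the input, which the choice of the member by these fragments favours, and Abcam was higher than Santa Cruz. The replicates of an antibody count as 1 sample, so this is 1 comparison of the antibodies. The ratio was 3.28 (1.86 to 5.57, exact adjusted p = 0.00857) with Santa Cruz from 20 fragments and 5.58 (3.63 to 8.53, exact adjusted p = 1.49e-11) with Abcam from 42 fragments, over 53 input fragments. The difference between the antibodies did not pass (1.70, 0.978 to 3.06, exact adjusted p = 1). Of the 20 Santa Cruz fragments, 18 lay within 500 bp of the TSS. With a window of 10 kb the ratio was 1.47 (1.02 to 2.09, exact adjusted p = 0.535) with Santa Cruz, so that call was lost, and 1.98 (1.47 to 2.63, exact adjusted p = 0.00178) with Abcam. The Ctnnd1 promoter itself had ratios of 0.808 (0.211 to 2.22) and 0.983 (0.342 to 2.32).

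Gm17717, an intergenic lincRNA gene read from the minus strand, starts at chr5:108117034, 90054 bp from the nearest protein-coding TSS. Its depth was 2.53 ppm in the input, 7.78 and 6.89 ppm in the libraries made with Santa Cruz, and 9.42 and 10.5 ppm in those made with Abcam. Each ChIP library was again above the input, which the choice of the member by these fragments favours. From 19 Santa Cruz, 28 Abcam and 56 input fragments, the ratio was 2.95 (1.65 to 5.04, exact adjusted p = 0.0315) and 3.52 (2.15 to 5.64, exact adjusted p = 1.26e-04). Of these fragments, 9 (Santa Cruz) and 11 (Abcam) lay in the 250 bp just downstream of the TSS. The Santa Cruz call was lost with windows of 1, 3 and 10 kb and with either replicate left out, and the Abcam call with a window of 10 kb (1.34, 0.994 to 1.77, exact adjusted p = 0.505).

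**Figure D2:**
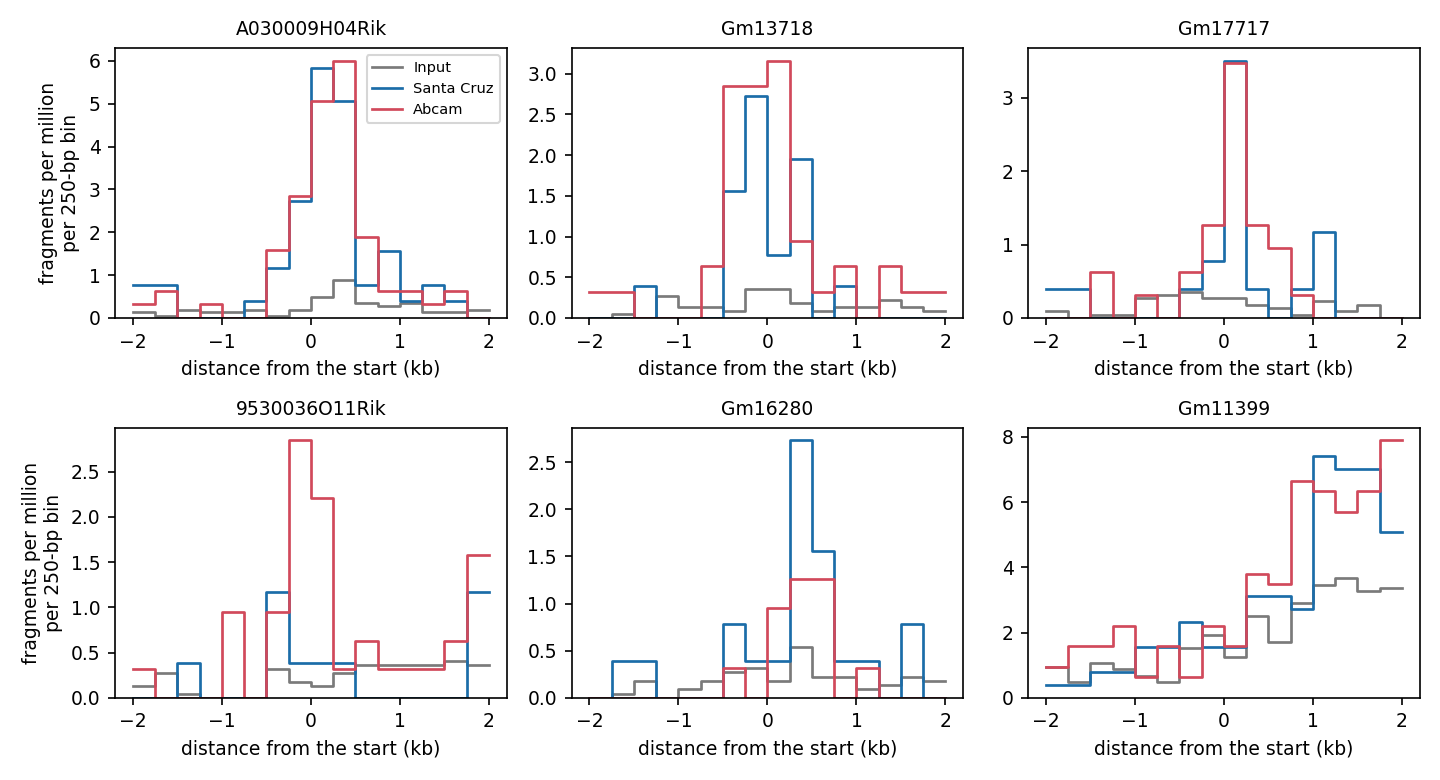
Fragments per 1000000 library fragments in 250-bp bins (y axis) by distance from the TSS in kb (x axis, in the direction of transcription) for 6 named lncRNA promoters, with the input in grey, Santa Cruz in blue and Abcam in red. The y axes differ between panels. At A030009H04Rik, Gm13718 and Gm17717 both antibodies rise over the input within 500 bp of the TSS, at 9530036O11Rik mainly Abcam does, and at Gm11399 the signal climbs with the input toward 2 kb.

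The TSS of 9530036O11Rik, a long lincRNA gene, lies at chr5:28784814 within an exon of Shh, the gene of the Sonic hedgehog ligand, on the opposite strand and 8827 bp from the TSS of Shh. It had the highest CpG content of the 13, with an observed over expected CpG of 1.15. Its depth was 3.54 ppm in the input, 4.16 and 4.14 ppm in the libraries made with Santa Cruz, and 9.77 and 11 ppm in those made with Abcam. The Abcam libraries were 2.76 and 3.11 times the input, and the Santa Cruz libraries 1.18 and 1.17 times. The Abcam ratio was 3.21 (2.10 to 4.82, exact adjusted p = 2.38e-05) from 36 fragments and the Santa Cruz ratio 1.10 (0.508 to 2.13, exact adjusted p = 1) from 10. Abcam over Santa Cruz was 2.92 (1.42 to 6.60, exact unadjusted p = 0.00200, exact adjusted p = 1), so the difference between antibodies did not pass. With a window of 10 kb the Abcam call was lost (1.38, 1.07 to 1.76, exact adjusted p = 0.276). The Shh promoter had ratios of 1.56 (0.815 to 2.77) and 1.54 (0.852 to 2.62).

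Gm16280 was past the threshold with Santa Cruz alone, at 2.85 (1.65 to 4.73, exact adjusted p = 0.0235) from 21 fragments, beside 1.43 (0.723 to 2.62, exact adjusted p = 1) from 13 Abcam fragments and 64 input fragments. It starts at chr10:86371506 in an intron of Stab2, a scavenger receptor gene, on the opposite strand. Its depth was 7.13 and 7.96 ppm with Santa Cruz, 3.26 and 3.86 with Abcam and 2.92 in the input. The antibodies did not differ past the threshold here either (0.502, 0.231 to 1.05, exact adjusted p = 1). The Santa Cruz call was lost with windows of 1, 3 and 10 kb and without either replicate.

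Of the other called members, 1700012C14Rik (TSS at chr6:30410128) passed with Abcam at 2.30 (1.60 to 3.24, exact adjusted p = 9.17e-04) and had 1.70 (1.08 to 2.58, exact adjusted p = 0.561) with Santa Cruz. The Abcam call was lost with windows of 3 and 10 kb. Spata5l1, listed as a processed transcript with its TSS at chr2:122456361, passed with Abcam at 2.50 (1.46 to 4.12, exact adjusted p = 0.0476), and Gm16346, antisense to an intron of Csmd1, at 3.4 (1.66 to 6.65, exact adjusted p = 0.0476). Their Santa Cruz ratios were 1.68 (0.824 to 3.15) and 1.80 (0.610 to 4.4), neither past the threshold. These are the calls nearest the threshold with Abcam, and both were lost in 6 of 8 alternative settings, including without either Abcam replicate. Gm14950 on the X chromosome passed with Santa Cruz at 4.01 (1.84 to 8.23, exact adjusted p = 0.0490), from 12 fragments over 26 in the input. Its Santa Cruz replicates went apart, with depths of 1.53 and 4.43 ppm beside 1.49 in the input, and without replicate 2 the ratio was 1.5 (0.381 to 4.33). Without replicate 1 it was 4.11 (1.83 to 8.61, exact adjusted p = 0.0710), so the call was lost either way.

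Other calls lay where the input was thin, or where many fragments sat at positions also held by the input. The number of copies of these sequences in the genome was not measured. Gm11399, antisense to an intron of Sfi1, held 673 input fragments, the most of any member. Its depth was 48.0 and 43.1 ppm with Santa Cruz, 54.5 and 51.1 with Abcam and 47.6 in the input, so the Santa Cruz replicates lay on either side of the input and the Abcam replicates slightly above it. With positions counted once, the ratio was 1.54 (1.25 to 1.87, exact adjusted p = 0.00629) for Santa Cruz and 1.76 (1.48 to 2.09, exact adjusted p = 1.72e-07) for Abcam. With every deposited fragment of both replicates counted it was 0.897 (0.769 to 1.04) and 1.05 (0.917 to 1.19), neither past the threshold. The promoter of Sfi1, 45307 bp away, held 881 input fragments. With positions counted once, it passed with both antibodies, at 2.93 (2.56 to 3.34, exact adjusted p = 1.55e-44) and 3.29 (2.92 to 3.70, exact adjusted p = 2.13e-70). Its ratios with every fragment counted are not given here. Here 31.9% of the Santa Cruz and 25% of the Abcam fragments lay at a position also held by the input, against 2.45% and 2.38% over all members. The median member held 58 input fragments, and a denser input offers more positions to share. The part of input density in such shares, here and at Pisd-ps2 below, was not tested.

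Pisd-ps2, named as a pseudogene of the phosphatidylserine decarboxylase gene, had 2.47 (1.58 to 3.76, exact adjusted p = 0.0133) with Santa Cruz and 3.66 (2.58 to 5.15, exact adjusted p = 1.33e-09) with Abcam. Its depth was 12.1 and 12.8 ppm with Santa Cruz, 21.2 and 16.9 with Abcam and 6.29 in the input. All ChIP libraries were above the input, which the choice of the member by these fragments favours. Of the fragments, 31.0% (Santa Cruz) and 24.5% (Abcam) lay at an input position. H2-Q8, of the major histocompatibility family, passed with Abcam from 8 fragments over 5 in the input (11.3, 3.25 to 43.8, exact adjusted p = 0.00613), and this call was lost with a window of 10 kb. Drr1 on the X chromosome passed with Santa Cruz (exact adjusted p = 0.0227) from 4 fragments, with 0 in the input and 0 with Abcam. The exact interval puts it at least 5.73-fold above the input, and against a floor of 3 counts in the input the ratio is 11.6. The call was lost with windows of 1 and 3 kb. Without Gm11399, Pisd-ps2, H2-Q8 and the other members with under 10 input fragments, 5 members passed with Santa Cruz and 7 with Abcam. Leaving out 1 library ended further calls. Without replicate 2 of the antibody concerned, those of Pisd-ps2 (Santa Cruz, exact adjusted p = 0.0531), Drr1, H2-Q8 and 1700012C14Rik were lost, and without Santa Cruz replicate 1 that of Gm11399 (exact adjusted p = 0.314).

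**Figure D3:**
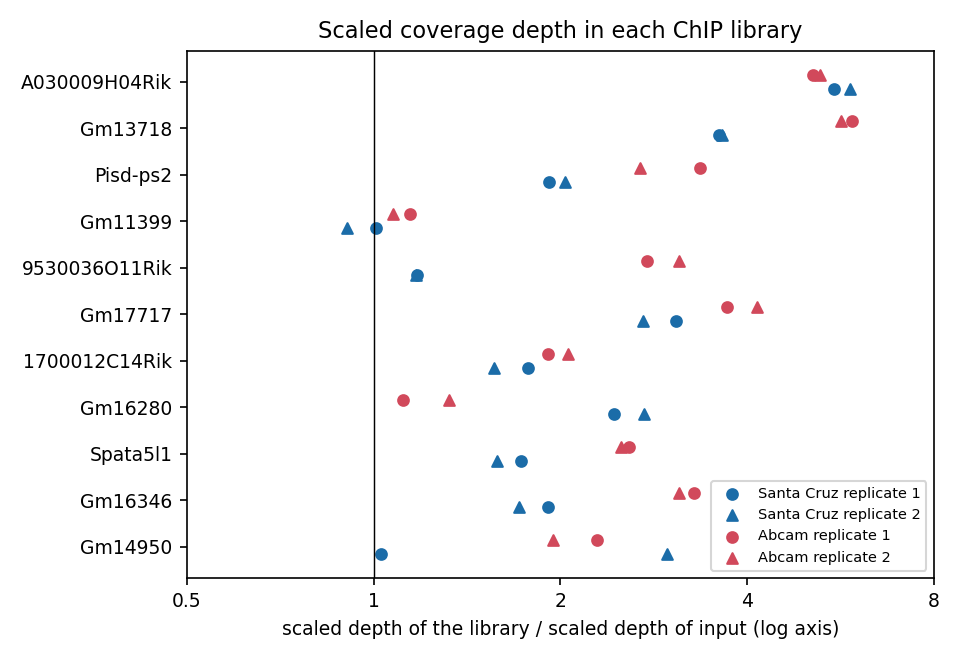
Scaled coverage depth of each ChIP library over that of the input (x axis, log axis) within 2 kb of the TSS of the called lncRNA promoters with 10 or more input fragments (y axis). Blue is Santa Cruz and red Abcam, with circles for replicate 1 and triangles for replicate 2, which hold largely the same fragments. A030009H04Rik lies between 5.11 and 5.85 in the 4 libraries, Gm11399 between 0.907 and 1.15, and the Santa Cruz replicates of Gm14950 lie at 1.03 and 2.97.

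Of the 13 called promoters, 7 fell at starts rich in CpG dinucleotides. A start was called CpG-rich where the observed over expected CpG of the 500 bp around it was above 0.6, which the rule for members had not used. Of the 2387 members, 244 (10.2%) were CpG-rich, against 49.3% of the protein-coding promoters. With Santa Cruz, 4 of 244 CpG-rich members (1.64%) and 4 of 2143 CpG-poor members (0.187%) passed, beside 1.09% and 0.185% of the CpG-rich and CpG-poor protein-coding promoters. With Abcam, 7 CpG-rich members (2.87%) and 3 CpG-poor members (0.140%) passed, beside 1.87% and 0.291% of the protein-coding promoters. The CpG-rich calls include Pisd-ps2, whose observed over expected CpG of 0.607 is just above the limit, and H2-Q8, whose transcript class is a transcribed pseudogene. Without these, 3 CpG-rich members passed with Santa Cruz and 5 with Abcam. The 5 still include Spata5l1, whose call lies near the threshold. The shares rest on few calls, and the difference between them was not tested.

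For CpG-rich members the summed ratio was 0.996 (0.948 to 1.04) with the Santa Cruz antibody and 1.10 (1.05 to 1.15) with Abcam, and that of CpG-poor members 0.901 (0.885 to 0.918) and 0.916 (0.900 to 0.931). With the limit at 0.6, CpG-rich members were above CpG-poor ones with both antibodies, and the intervals did not overlap. Part of this came from the called promoters, which were selected on these same fragments. Without them, CpG-rich members had 0.943 (0.896 to 0.991) and 1.02 (0.972 to 1.06), close to the CpG-rich protein-coding promoters (0.951 and 1.02), and CpG-poor members had 0.895 (0.878 to 0.911) and 0.908 (0.893 to 0.923). In 4 classes of nearly equal size, ordered from low to high CpG content, the ratio was 0.95, 0.875, 0.881 and 0.948 with Santa Cruz and 0.961, 0.899, 0.881 and 1.01 with Abcam. It did not rise steadily with either antibody, and with Santa Cruz the lowest and the highest class had nearly the same ratio. CpG-rich members also had more input fragments, with a median of 72 against 57.

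**Figure D4:**
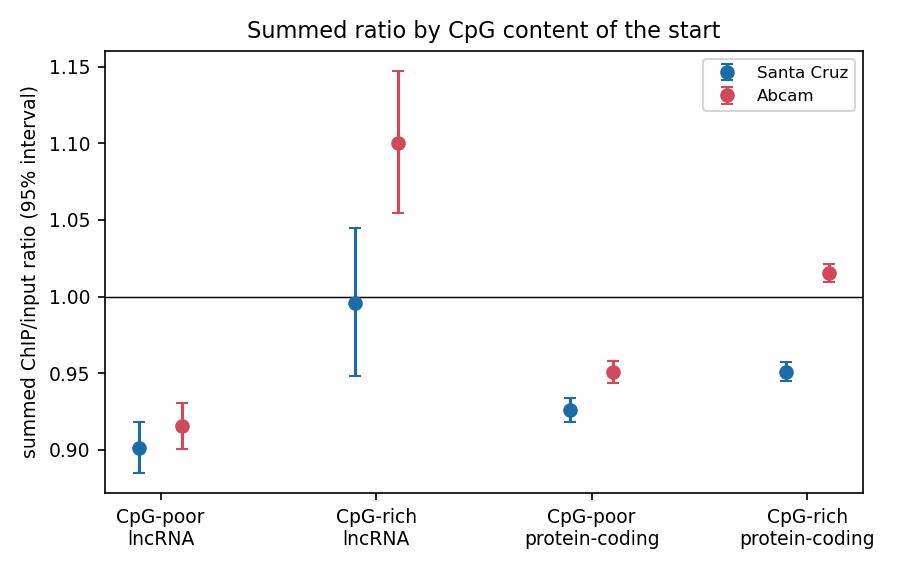
Summed ChIP/input ratio within 2 kb of the TSS (y axis, points) with its exact 95% interval (bars) for lncRNA and protein-coding promoters by CpG class (x axis), with Santa Cruz in blue and Abcam in red. The y axis does not start at 0. With Abcam, CpG-rich lncRNA promoters lie at 1.10 and CpG-poor ones at 0.916, and the wider bars of the CpG-rich class reflect its 244 promoters.

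The shape of the signal around the start differed between the CpG classes with Abcam. The density within 500 bp of the TSS was divided by that at 1.5 to 2 kb, and the result by the same quantity in the input. Over all members this was 0.961 (0.916 to 1.01) with the Santa Cruz antibody and 1.02 (0.981 to 1.07) with Abcam, so neither antibody was more concentrated at the start than the input beyond counting error. In CpG-rich members it was 1.06 (0.927 to 1.21) with the Santa Cruz antibody and 1.54 (1.36 to 1.74) with Abcam, and in CpG-poor members 0.940 (0.893 to 0.990) and 0.95 (0.907 to 0.995). Without the called promoters, the CpG-rich members kept an Abcam value of 1.39 (1.22 to 1.58), and the Santa Cruz value was 0.959 (0.833 to 1.10).

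Abcam was thus concentrated at CpG-rich lncRNA starts also where no single promoter passed the threshold. The direct ratio of the profiles, Abcam over Santa Cruz, which does not use the input, was 1.45 (1.22 to 1.72) at CpG-rich members and 1.01 (0.946 to 1.08) at CpG-poor members. At CpG-rich protein-coding promoters it was 1.11 (1.08 to 1.13), and the profile relative to the input was 0.962 (0.944 to 0.981) with the Santa Cruz antibody and 1.06 (1.05 to 1.08) with Abcam. The input itself was denser at the start, by 1.72 over its flank at CpG-rich members and 1.22 at CpG-poor members. The part of the input density and of base composition in these profiles was not tested.

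**Figure D5:**
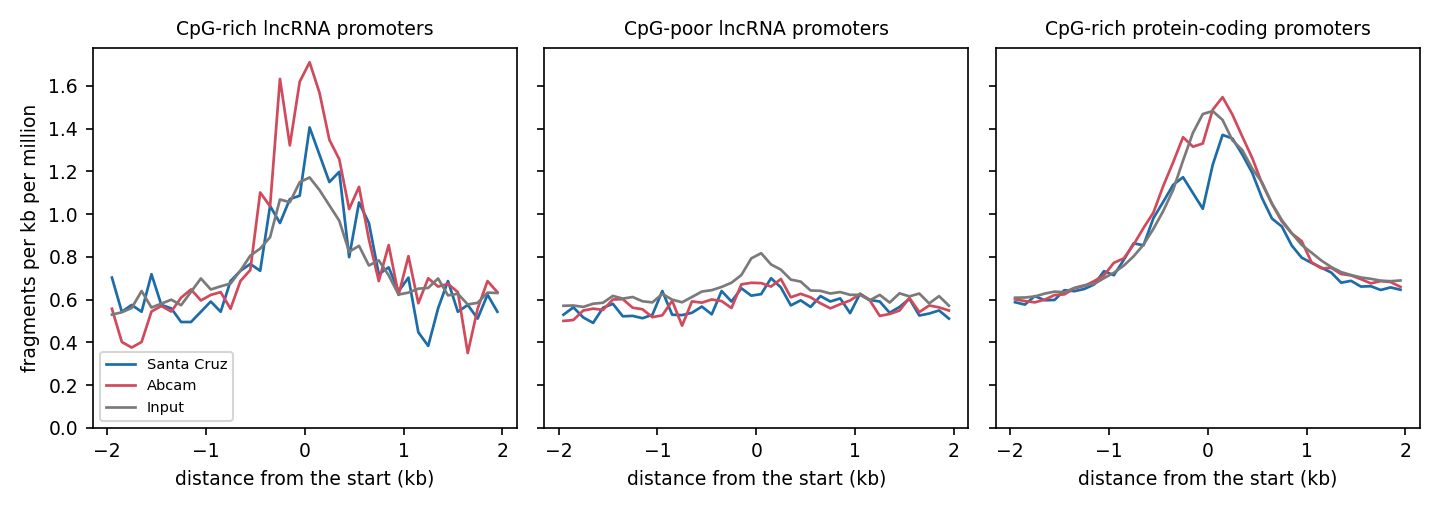
Fragments per kb per 1000000 library fragments in 100-bp bins (y axis) by distance from the TSS in kb (x axis), for 244 CpG-rich and 2143 CpG-poor lncRNA promoters and 11015 CpG-rich protein-coding promoters. The input is grey, Santa Cruz blue and Abcam red. At CpG-rich lncRNA starts the Abcam line rises over the input, with a centre over flank of 2.65 against 1.72, and at CpG-poor starts both antibodies lie mostly under the input.

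Sequences bound by partners of Pcgf6 were counted from 250 bp before to 50 bp after the TSS on both strands. CACGTG, the canonical E-box, was in 5.32% of the members and 7.45% of all promoters. TTCCCGC, an E2F core (GCGGGAA on the other strand), was in 2.14% of the members and 5.38% of all promoters, and TCACACCT, a T-box half-site, in 1.34% and 1.14%. CpG-rich starts made up 10.2% of the members and 45.7% of all promoters, so these shares mix unlike classes. Among CpG-rich starts, CACGTG was in 12.3% of the members and 10.9% of the protein-coding promoters. There TTCCCGC was in 6.97% and 9.64%, and TCACACCT in 0.410% and 0.726%. The 3 motifs share no overlapping spelling. Among the 13 called members, 0 held CACGTG or TCACACCT and 1 held the E2F core, which was Gm16280, 3 bp from its TSS. Members with CACGTG had a summed ratio of 0.854 (0.794 to 0.918) with the Santa Cruz antibody and 0.959 (0.901 to 1.02) with Abcam, and those with TTCCCGC 0.954 (0.857 to 1.06) and 1.04 (0.948 to 1.14). The 32 members with TCACACCT had 0.811 (0.696 to 0.940) and 0.901 (0.789 to 1.02). A match is a description of these letters in this window, not a site.

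LncRNAs with known names were examined as a list, grouped by role. Of 62 annotated genes that the list matched, 46 were members, and 0 of these passed with either antibody by the exact binomial test. With 0.335% and 0.419% of all members past the threshold, a list of this length would hold few calls or none, so nothing particular to the list can be read from it. At an unadjusted p under 0.05, Mir17hg did so with Santa Cruz and Jpx with Abcam. The summed ratio of the 46 was 0.894 (0.797 to 0.999) with the Santa Cruz antibody and 0.948 (0.857 to 1.05) with Abcam, and their medians were 0.868 and 0.902, near the medians of all members. Both intervals contain the sums over all members (0.912 and 0.937).

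The genes of X inactivation gave 1.12 (0.686 to 1.76) and 1.20 (0.781 to 1.79) over 5 members. Jpx, annotated as Enox and known as an activator of Xist, had the highest Abcam ratio of the list at 2.54 (1.04 to 5.62, exact adjusted p = 0.564), from 9 fragments over 25 in the input, and 1.39 (0.351 to 4.02) with Santa Cruz. Xist, the RNA that coats the inactive X chromosome, followed with 1.76 (0.852 to 3.37) and 1.45 (0.591 to 3.09). Tsix, its antisense partner, had 1 (0.194 to 3.27) with the Santa Cruz antibody and 0.542 (0.0623 to 2.16) with Abcam. These intervals are wide, since the X-linked windows held few fragments. The imprinted genes H19, Airn, Meg3 and Mirg together had 0.640 (0.4 to 0.978) and 0.790 (0.541 to 1.12). H19 had 0.472 (0.150 to 1.14) and 0.842 (0.406 to 1.58).

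Among the nuclear and housekeeping lncRNAs, Malat1 had 0.868 (0.437 to 1.57) with the Santa Cruz antibody and 0.705 (0.354 to 1.28) with Abcam, and Neat1 0.994 (0.541 to 1.70) and 0.753 (0.401 to 1.31). Over its 12 members, this group had 0.968 (0.801 to 1.16) and 0.840 (0.699 to 1). Snhg12, a host of small nucleolar RNAs, was among the lowest of the list with Abcam at 0.340 (0.0904 to 0.902). Hotair, annotated as Gm16258 in the Hoxc cluster, had 0.571 (0.180 to 1.39) and 0.834 (0.367 to 1.67). Of the developmental lncRNAs, Sox2ot, which overlaps the Sox2 gene, had the highest Santa Cruz ratio of the list at 1.93 (0.867 to 3.88) and 1.25 (0.510 to 2.68) with Abcam, and Rmst had 0.434 (0.0508 to 1.67) and 0.705 (0.183 to 1.95). The 12 lncRNAs named for ESCs, mostly Platr genes, gave 0.831 (0.634 to 1.07) and 1.06 (0.851 to 1.3). Platr30, annotated as Gm17580, had 0 fragments with both antibodies and 1 in the input, so no ratio can be read there.

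Mir17hg, the host of the miR-17 cluster of growth-promoting microRNAs, starts at chr14:115442101 and had 1.89 (0.924 to 3.58, exact adjusted p = 0.954) with Santa Cruz and 1.54 (0.749 to 2.91, exact adjusted p = 1) with Abcam. With a window of 3 kb, it passed with both, at 3.24 (2.07 to 4.95, exact adjusted p = 1.71e-04) and 2.38 (1.49 to 3.69, exact adjusted p = 0.0231). The added fragments lay mainly upstream. From 3000 to 2000 bp before the annotated TSS there were 14 Santa Cruz, 15 Abcam and 24 input fragments, a ratio of 5.07 (2.42 to 10.2) and 4.4 (2.15 to 8.74). The first 1000 bp after the TSS held 2, 2 and 11 fragments. This interval was chosen after its values were seen and has no test of its own.

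In the largest transcript classes and positions of the lncRNA gene, the summed ratios lay close together. Transcripts of class lincRNA had 0.911 (0.888 to 0.934) with the Santa Cruz antibody and 0.941 (0.919 to 0.962) with Abcam, and those of class antisense 0.910 (0.885 to 0.936) and 0.917 (0.894 to 0.941). The 1455 intergenic starts had 0.924 (0.904 to 0.945) and 0.957 (0.938 to 0.977), and the 637 starts antisense within an intron 0.902 (0.873 to 0.931) and 0.906 (0.880 to 0.933). Smaller sets spread wider. The 150 starts antisense within an exon had 0.853 (0.801 to 0.909) and 0.918 (0.868 to 0.970), and the 27 sense ones 1.01 (0.868 to 1.16) and 0.897 (0.779 to 1.03). The 31 members of other transcript classes had 1.03 (0.890 to 1.19) and 1.01 (0.876 to 1.15). By distance, the 343 members at 5 to 10 kb from a protein-coding TSS had 0.864 (0.827 to 0.902) and 0.891 (0.856 to 0.926), and the 490 members beyond 100 kb 0.940 (0.901 to 0.981) and 0.980 (0.944 to 1.02). The classes between them had 0.940, 0.914 and 0.895 with Santa Cruz and 0.920, 0.95 and 0.938 with Abcam, so the ratio did not rise steadily with distance. The median input was 65 fragments in the nearest class and 45 in the most distant.

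Where the input was thin, ratios rest on few fragments. The 152 members with under 10 input fragments had summed ratios of 2.46 (2.02 to 2.99) with the Santa Cruz antibody and 2.18 (1.80 to 2.62) with Abcam, and 60 of them had no input fragment. They were chosen by a low input, the denominator of the ratio. A high ratio is thus partly set by that choice, which the intervals do not cover. Members with 10 or more gave 0.907 (0.892 to 0.923) and 0.933 (0.918 to 0.947). The part of read placement in this excess was not tested. The 137 members on the X chromosome held a median of 15 input fragments against 60 on autosomes, and gave 1.07 (0.947 to 1.21) and 1.04 (0.922 to 1.16).

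At the low end, 10 of the 1955 members with 30 or more input fragments had no Santa Cruz fragment and 5 had no Abcam fragment. The share over all promoters is not given here. The ChIP libraries are far smaller than the input, so some empty windows follow from counting alone. The members named below were picked as the lowest, which the intervals do not cover, so their upper limits do not show depletion. With Santa Cruz these were led by Gm16080, Gm13403 and Gm15478, with 75, 72 and 53 input fragments, for which the intervals allow a ratio of up to 0.438, 0.457 and 0.626. With Abcam they were led by Gm11455, Gm14809 and Gm15328, with upper limits of 0.518, 0.575 and 0.699. None of the 6 was empty with both antibodies, and Gm15478 had an Abcam ratio of 1.20 (0.519 to 2.45).

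Compared directly with each other by a two-sided exact binomial test, the antibodies differed at 0 members after adjustment, against 2 of all 26204 promoters (0.00763%). At an unadjusted p under 0.05, 49 of the 2387 members differed. Members held a median of 6 Santa Cruz and 7 Abcam fragments. An exact test on so few fragments passes less often by chance than a threshold of 0.05 allows. That share can therefore not settle whether the antibodies differed, and the 49 are not read as differences. The share over all promoters at this threshold is not given here. The smallest p was at Gm16231, a transcript in an intron of St6galnac5 named after its values were seen, with 15 Santa Cruz and 2 Abcam fragments (Abcam over Santa Cruz 0.108, 0.0120 to 0.465, exact unadjusted p = 5.37e-04, exact adjusted p = 1). Its Santa Cruz ratio over input was 1.94 (1.03 to 3.44, exact adjusted p = 0.737) and its Abcam ratio 0.210 (0.025 to 0.790). A miss of the threshold at these fragment numbers does not show that the antibodies act alike.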

How the data were processed

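Members, lists and tests were chosen with earlier results of these data known. The authors deposited, for each of the 5 libraries, a coverage signal on mm9, the depth of reads extended to 300 bp without scaling or division by input. Submitters' processing notes name Bowtie 0.1.2.7. Read filters are not given in the sources used here. Fragments were recovered from steps in the depth, allowing 2 bp at fragment ends (99.9% of simulated starts exact at ChIP depth, 98.4% at input depth), and replicates of an antibody were joined. Coverage keeps no strand, so 1 fragment was kept per position, placed at its middle. The TSS was the start shared by most annotated transcripts of the gene, and the upstream one on a tie. Each promoter was tested by the exact binomial test, adjusted over 26204 promoters at 0.05. Named genes were up to 20 called members by adjusted p, and, per antibody, the 2 highest and 2 lowest known lncRNAs and the 3 lowest members with 30 or more input fragments. Of 48 list entries, 12 matched no gene. Alternatives were all fragments, windows of 1, 3 and 10 kb, median scaling, another start, coverage depth, a CpG cut of 0.4, a distance of 10 kb and each replicate left out. Gene names and sequence came from GENCODE and NCBIM37. Python 3.11.15, numpy 2.4.6, scipy 1.17.1 and pandas 2.3.3 were used.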

Additional observations from a re-analysis of the deposited data

How the results depend on the processing

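Of the 18 calls (a member with an antibody), 9 were lost with a 10 kb window, 8 with 1 kb, 6 with 3 kb, 3 with all fragments and 3 with median scaling. With all fragments, which counts those of both replicates, 18 members passed with Santa Cruz, 30 with Abcam and 15 differed between antibodies. Fragments held by both replicates then count more than once, so these p are too small. The counts therefore cannot be read as more lncRNA promoters enriched, and their share over all promoters is not given here. In the same setting, Gm11399 fell to 0.897 with Santa Cruz (0.958 by coverage depth). Santa Cruz calls numbered 3 with a 1 kb window, 3 to 5 with a replicate left out, and 5 without low-input members, Gm11399 and Pisd-ps2. Abcam calls numbered 6 without replicate 2 and 8 without replicate 1. With a 1 kb window the median ratio was 0.854 (Santa Cruz) and 0.881 (Abcam), the Abcam sum 1.21 in CpG-rich and 0.900 in CpG-poor members. With a 10 kb window, the Santa Cruz median was 0.920 and the Abcam sum 0.914. Median scaling gave sums of 0.883 and 0.905 and medians of 0.865 and 0.877. The CpG-rich sum was 0.943 and 1.02 without called members, and with a CpG cut of 0.4 the Abcam sum was 1.01 and its profile 1.22. The cause of these shifts was not tested. A030009H04Rik passed in all 8 settings with both antibodies. No paired analysis was possible because the replicates of an antibody hold the same fragments and count as 1 sample. At this depth most 2-fold enrichments would be missed, 1 input serves both antibodies, and no control antibody was analysed here.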
